A study of Homo sapiens with 6 samples.

Results

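Eicosanoids are short-range lipid signals made from arachidonic acid. The transcripts described here are 10 genes of that pathway, chosen by name as the enzymes of arachidonate release, of leukotriene synthesis and of prostaglandin synthesis, out of 61806 genes counted. They are *PLA2G4A* for the release step, *ALOX5*, *ALOX5AP*, *LTA4H* and *LTC4S* for the leukotriene branch, and *PTGS1*, *PTGS2*, *PTGES2*, *PTGES3* and *HPGDS* for the prostaglandin branch. Of these 10 genes, 9 had reads and passed the filter on low counts, and *HPGDS* had none.

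The cells were MV4-11, a human acute myeloid leukemia (AML) line of myelomonocytic type that carries the *FLT3*-ITD mutation. RNA sequencing compared 3 libraries with a control shRNA (shNC 1 to 3) with 3 libraries labelled shATGL (shATGL 1 to 3), whose shRNA was directed at *ATGL*, the gene for adipose triglyceride lipase, listed as *PNPLA2*. All 6 libraries came from this single line, so other leukemias are not represented. The study's methods describe lentiviral delivery and puromycin selection of stable lines, and the labels do not say which of the *ATGL* shRNA sequences a library carried or whether the libraries came from separate cultures, so p-values measure the spread between these libraries, which may be technical.

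Cytosolic phospholipase A2, encoded by *PLA2G4A*, cuts arachidonic acid from membrane phospholipids. The 5-lipoxygenase of *ALOX5*, which takes its substrate from the membrane protein encoded by *ALOX5AP* (FLAP), turns it into leukotriene A4. *LTA4H* then makes leukotriene B4, a neutrophil attractant, or *LTC4S* couples glutathione to give the cysteinyl leukotrienes. The cyclooxygenases of *PTGS1* and *PTGS2* start the other branch, which leads to prostaglandins and thromboxane. Myeloid cells are a main source of leukotrienes.

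Sequences are shown for the release enzyme, whose mRNA the study measured by PCR, and for the start sites of the most abundant transcript, of both cyclooxygenases and of the gene without reads. The study's *PLA2G4A* PCR primers matched 2 of 2 annotated transcripts of the gene in GENCODE 29. The product was 150 bases long, covered bases 171 to 320 of ENST00000367466 from exon 2 to exon 4 of 18, was coding throughout in that transcript, and spanned chr1:186854373-186893063 (GRCh38, plus strand, introns included). Capitals mark the primer sites, the second as the reverse complement of the primer.
*PLA2G4A* PCR product: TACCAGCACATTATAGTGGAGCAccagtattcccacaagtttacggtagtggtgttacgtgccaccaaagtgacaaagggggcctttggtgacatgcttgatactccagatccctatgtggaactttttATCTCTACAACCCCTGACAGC

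The promoter windows are from RefSeq (GRCh38.p14) and run on the gene's strand from 250 bases before the start to 50 after it. Windows were matched for 9 of the 10 genes, 12 windows in all. Capitals mark the TATA box letters TATAAA on the gene's strand and the GC box letters GGGCGG or CCGCCC, which are the same motif on either strand.
*PTGES3* promoter, chr12:56688235-56688534, minus strand: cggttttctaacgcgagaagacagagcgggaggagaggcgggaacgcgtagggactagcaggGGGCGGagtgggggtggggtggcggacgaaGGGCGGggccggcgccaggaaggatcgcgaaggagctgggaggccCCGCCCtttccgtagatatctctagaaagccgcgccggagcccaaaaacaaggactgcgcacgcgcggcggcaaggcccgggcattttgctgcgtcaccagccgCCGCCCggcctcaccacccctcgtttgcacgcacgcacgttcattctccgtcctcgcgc
*PTGS1* promoter, chr9:122370283-122370582, plus strand: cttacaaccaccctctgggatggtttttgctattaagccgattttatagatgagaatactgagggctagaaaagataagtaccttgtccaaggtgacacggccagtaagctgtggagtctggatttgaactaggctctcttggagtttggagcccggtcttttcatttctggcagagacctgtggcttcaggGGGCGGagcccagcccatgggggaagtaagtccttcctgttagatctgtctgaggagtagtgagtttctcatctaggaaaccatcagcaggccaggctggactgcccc
*PTGS1* second promoter, chr9:122375052-122375351, plus strand: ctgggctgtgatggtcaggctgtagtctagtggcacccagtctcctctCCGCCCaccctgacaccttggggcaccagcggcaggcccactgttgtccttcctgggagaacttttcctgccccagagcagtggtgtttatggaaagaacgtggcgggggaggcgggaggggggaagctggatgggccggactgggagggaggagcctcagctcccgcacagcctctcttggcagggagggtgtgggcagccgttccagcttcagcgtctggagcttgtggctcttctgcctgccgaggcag
*PTGS2* promoter, chr1:186680374-186680673, minus strand: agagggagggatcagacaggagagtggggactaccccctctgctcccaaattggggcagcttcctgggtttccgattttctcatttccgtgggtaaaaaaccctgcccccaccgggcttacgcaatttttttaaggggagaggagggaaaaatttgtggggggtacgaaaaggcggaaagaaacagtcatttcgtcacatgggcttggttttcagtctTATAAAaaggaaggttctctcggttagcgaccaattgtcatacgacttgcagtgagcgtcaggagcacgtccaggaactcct
*HPGDS* promoter, chr4:94342787-94343086, minus strand: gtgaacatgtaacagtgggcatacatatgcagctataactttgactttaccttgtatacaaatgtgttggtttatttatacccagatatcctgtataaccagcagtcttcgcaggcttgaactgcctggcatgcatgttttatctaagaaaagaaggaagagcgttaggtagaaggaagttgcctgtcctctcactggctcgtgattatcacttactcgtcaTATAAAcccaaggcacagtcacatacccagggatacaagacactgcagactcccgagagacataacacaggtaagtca

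The *PTGES3* window held 4 GC boxes, 37 CpG dinucleotides and no TATAAA on either strand. The *PTGS2* window held 1 TATAAA, which began 32 bases before the start, no GC box and 12 CpG dinucleotides. In the *HPGDS* window 1 TATAAA began 28 bases before the start and another lay on the opposite strand, with 5 CpG dinucleotides and no GC box. Each *PTGS1* window held 1 GC box, and the first also held 1 TATAAA on the opposite strand. Across 35116 RefSeq promoter windows of the same length, 11.5% held TATAAA and 45.0% held a GC box on either strand, and the median was 14 CpG dinucleotides. These matches describe the letters of the windows and are not measured binding.

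The authors deposited raw counts, and values below are CPM, the reads of a gene relative to the TMM-scaled total of its library. Total counts were between 59674064 and 74808280 per library, and 24360 to 25959 genes had a count. *PNPLA2*, the targeted gene, had 101, 97.0 and 107 CPM in shNC 1 to 3 and 102, 98.1 and 104 CPM in shATGL 1 to 3. The groups overlapped, the log2 fold change was -0.0053 (95% interval -0.15 to 0.14), and edgeR's quasi-likelihood test gave an adjusted p of 0.979, so the libraries labelled shATGL did not have less of this mRNA. The direction of every difference below rests on these labels. The 10 myelomonocytic markers all had reads and summed to 2316 to 2477 CPM in shNC and 2133 to 2320 CPM in shATGL, although *CD14* had at most 18 counts in a library.

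In 6 of the 9 transcripts the library shATGL 3 lay farther from shATGL 1 and 2 than these lay from each other on the log2 scale. They were *PLA2G4A*, *ALOX5*, *ALOX5AP*, *PTGS1*, *PTGS2* and *PTGES3*. For *PLA2G4A*, *LTA4H* and *LTC4S* shATGL 3 lay inside the range of the shNC libraries. Neither count was made over all genes or for the other libraries, so how unusual they are cannot be judged. Results are given with and without shATGL 3, a choice that rests on its values.

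Levels can be compared between genes only per length, here as CPM per kilobase of all annotated exons of a gene merged. That length can exceed the length of the transcript present in the cells, so the order depends on it. On that scale the mean over 6 libraries was 120.3 for *PTGES3*, a cochaperone of HSP90 that also has prostaglandin E synthase activity, and 23.0 for *PTGES2*, a membrane-associated prostaglandin E synthase. *LTC4S* followed with 13.5, then *LTA4H* with 8.70 and *ALOX5AP* with 8.38. Before division by length, *LTA4H* (7350 bases) had more than *LTC4S* (1192 bases), with means of 64.0 and 16.1 CPM. *PTGS1* had 5.05, *PLA2G4A* 3.14, *ALOX5* 1.64 and *PTGS2* 0.267 CPM per kilobase.

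This order held library by library except in 1 place. The ranges of *LTA4H* (8.07 to 9.65) and *ALOX5AP* (7.12 to 9.87) overlapped, while every other pair of neighbours had separate ranges over the 6 libraries. Among 18566 tested genes with an exon length, *PTGES3* stood at percentile 98.3, *PTGES2* at 88.9, *LTC4S* at 81.3, *LTA4H* at 73.5 and *ALOX5AP* at 72.7. *PTGS1* was at percentile 63.4, *PLA2G4A* at 54.9, *ALOX5* at 44.2 and *PTGS2* at 18.0. The 5-lipoxygenase transcript was thus the least abundant of its branch, and the inducible cyclooxygenase the least abundant of the 9.

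**Figure D1:**
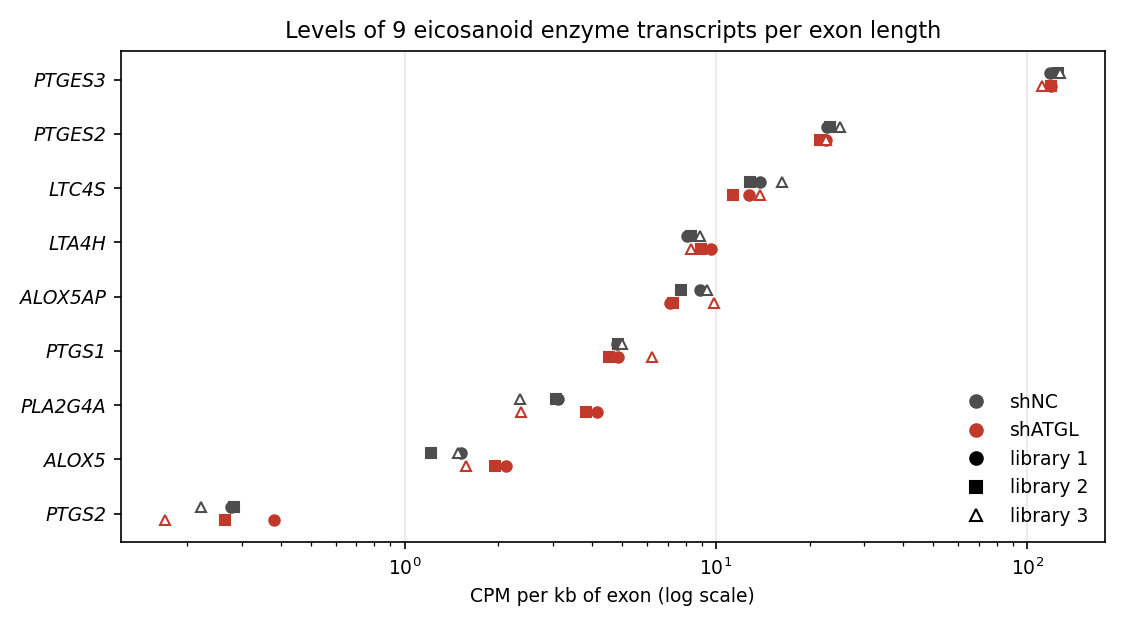
Level of each transcript in CPM per kilobase of exon on a log axis, 1 point per library, with shNC in grey above and shATGL in red below, and the marker shape giving the library number. *PTGES3* lies between 112 and 128 in all libraries and *PTGS2* between 0.171 and 0.382, with *LTA4H* and *ALOX5AP* the only neighbours whose points interleave.

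*HPGDS*, the hematopoietic prostaglandin D synthase known from mast cells (ENSG00000163106, chr4:94298535-94342876, minus strand), had 0 counts in all 6 libraries. A count of 0 allows up to 3 counts per library, which is 0.0392 to 0.0504 CPM, and such limits cover counting error only. Mast cell and basophil markers were also near absent, with *CPA3* and *CMA1* at 0 and a sum over 6 markers of 1.07 to 1.92 CPM in shNC and 0.917 to 1.10 CPM in shATGL. Reads of the other terminal synthases were uneven. *PTGES*, the inducible prostaglandin E synthase, and *PTGIS*, the prostacyclin synthase, had no reads, *PTGDS* had at most 9 counts in a library, and *TBXAS1*, the thromboxane synthase, had 3.53 to 5.36 CPM. *AKR1C3*, an aldo-keto reductase that makes prostaglandin F derivatives, had the highest CPM of the listed prostanoid synthases, with a mean of 81.1.

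Each group was then compared gene by gene. Of the 9 transcripts, 5 had a higher and 4 a lower mean in the libraries labelled shATGL. Over all genes tested 51.9% had a positive log2 fold change. The median log2 fold change was 0.065, beside 0.012 over all 19149 genes tested. By edgeR's quasi-likelihood test, no transcript passed an adjusted p of 0.05, alone or together with a fold change of 2, and the smallest adjusted p was 0.399, while 0.00522% of all genes tested passed either rule. At an unadjusted p under 0.05 there was 1 of the 9, in the higher direction, beside 11.7% of all genes (5.77% higher and 5.94% lower). DESeq2 gave 0 of 9 at an adjusted p under 0.05 (0.555% of the genes to which it gave one) and 1 at an unadjusted p under 0.05 (7.02% of all genes), and limma voom with library quality weights gave 1 at an adjusted p under 0.05 (15.7% of all genes). The groups did not overlap in 2 of the 9 (17.3% of all genes), 1 higher (7.93% of all genes) and 1 lower (9.38% of all genes). In these bulk libraries, fewer cells with a transcript and less RNA per cell cannot be told apart.

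At the release step, *PLA2G4A* (ENSG00000116711, chr1:186828953-186988981, plus strand) had 8.94, 8.79 and 6.76 CPM in shNC 1 to 3 and 11.9, 11.0 and 6.82 CPM in shATGL 1 to 3. The first 2 shATGL libraries were above every control, and the last was level with the lowest control, so the groups overlapped. The means were 8.16 ± 1.22 and 9.91 ± 2.72 CPM (SD, n = 3 each). The log2 fold change was 0.28 (SE 0.22, 95% interval -0.23 to 0.80, edgeR adjusted p = 0.618), and the exact two-sided permutation test gave p = 0.4. Without shATGL 3 it was 0.49 (95% interval 0.14 to 0.83, edgeR adjusted p = 0.0682). It was 0.13 without shATGL 1, 0.16 without shNC 3 and 0.16 after the correction for gene length and GC content. Over all 14 alternative settings the adjusted p was between 0.0682 and 0.931.

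*ALOX5*, the gene of 5-lipoxygenase (ENSG00000012779, chr10:45374176-45446119, plus strand), was higher in the libraries labelled shATGL before adjustment. It had 5.65, 4.54 and 5.53 CPM in shNC 1 to 3 and 7.88, 7.30 and 5.89 CPM in shATGL 1 to 3. All 3 shATGL libraries lay above all 3 controls, with shATGL 3 just above shNC 1. The mean went from 5.24 ± 0.609 to 7.02 ± 1.02 CPM (SD, n = 3 each), a 1.34-fold ratio with a log2 fold change of 0.42 (SE 0.16, 95% interval 0.055 to 0.79). edgeR's quasi-likelihood test gave an unadjusted p of 0.0294 and an adjusted p of 0.399. The exact permutation test gave p = 0.1, the smallest that 3 against 3 libraries can reach.

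Leaving out a library moved the *ALOX5* difference in either direction. Without shATGL 1 the log2 fold change was 0.33 (95% interval -0.088 to 0.75), and without shATGL 2 (0.39) or shNC 2 (0.35) the interval also included 0. Without shATGL 3 the log2 fold change was 0.53 (95% interval 0.19 to 0.88, edgeR adjusted p = 0.0522). limma voom with quality weights gave 0.50 with an adjusted p of 0.0329, past the threshold, as were 15.7% of all genes in that fit. Its library weights are estimated from these same values. Over all 14 settings the adjusted p ranged from 0.0329 to 0.837, and the log2 fold change from 0.33 to 0.53.

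*ALOX5AP* (ENSG00000132965, chr13:30713478-30764426, plus strand), whose protein FLAP hands arachidonate to 5-lipoxygenase, did not have the same pattern. It had 15.3, 13.2 and 16.1 CPM in shNC 1 to 3 and 12.2, 12.5 and 16.9 CPM in shATGL 1 to 3. The first 2 shATGL libraries were below every control and the last above every control. The means were 14.9 ± 1.47 and 13.9 ± 2.65 CPM (SD, n = 3 each), with a log2 fold change of -0.10 (95% interval -0.46 to 0.25, edgeR adjusted p = 0.807). The value was -0.27 without shATGL 3 (edgeR adjusted p = 0.164), -0.018 without shATGL 1 and -0.031 without shATGL 2.

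The ratio of *ALOX5* to *ALOX5AP* within a library, per exon length and chosen after the values were seen, was 0.170, 0.158 and 0.158 in shNC 1 to 3 and 0.297, 0.269 and 0.160 in shATGL 1 to 3. It was above all controls in shATGL 1 and 2 and inside their range in shATGL 3.

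Among the chosen genes, *LTA4H* and *LTC4S* encode the enzymes that use leukotriene A4, and neither passed an edgeR adjusted p of 0.05. *LTA4H* (ENSG00000111144, chr12:96000828-96043520, minus strand) had 59.3, 61.1 and 65.4 CPM in shNC 1 to 3 and 70.9, 65.9 and 61.3 CPM in shATGL 1 to 3. Its groups overlapped, with shATGL 1 and 2 above every control. The log2 fold change was 0.093 (95% interval -0.088 to 0.27, edgeR adjusted p = 0.644), 0.14 without shATGL 3 and -0.053 after the correction for gene length and GC content. *LTC4S* (ENSG00000213316, chr5:179793980-179796647, plus strand) had 16.6, 15.3 and 19.4 CPM in shNC 1 to 3 and 15.2, 13.6 and 16.6 CPM in shATGL 1 to 3. Its groups overlapped as well, and the log2 fold change was -0.18 (95% interval -0.47 to 0.11, edgeR adjusted p = 0.581), or -0.25 without shATGL 3. The ratio of *LTA4H* to *LTC4S*, per merged exon length and also chosen after the values were seen, was 0.547 to 0.647 in shNC and 0.600 to 0.788 in shATGL.

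**Figure D2:**
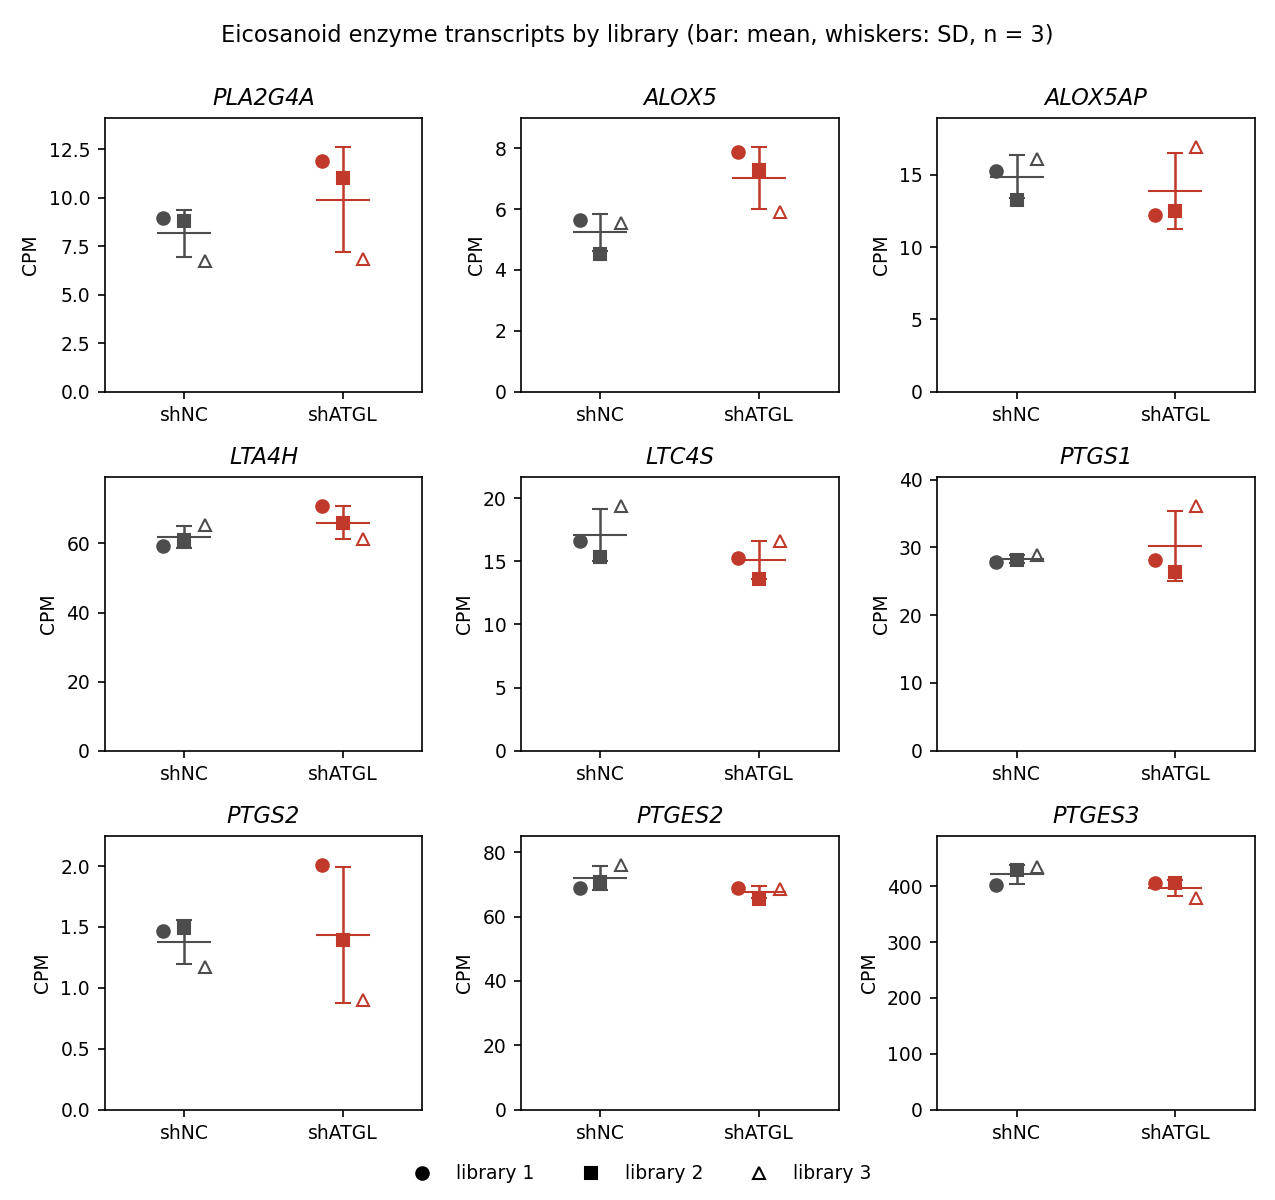
CPM of each transcript by library from a zero baseline, with shNC in grey, shATGL in red, horizontal bars for the mean and whiskers for the SD of 3 libraries. The groups are separate for *ALOX5* (4.54 to 5.65 against 5.89 to 7.88 CPM) and for *PTGES2* (69.0 to 76.1 against 65.6 to 68.8 CPM), and the open triangle of shATGL 3 often lies away from the other shATGL points.

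In the prostaglandin branch, *PTGS1*, the constitutive cyclooxygenase (ENSG00000095303, chr9:122370530-122395703, plus strand), had 27.8, 28.1 and 28.9 CPM in shNC 1 to 3 and 28.2, 26.3 and 36.1 CPM in shATGL 1 to 3. The controls were tightly grouped and shATGL 3 alone lay above all of them. The log2 fold change of 0.096 (95% interval -0.19 to 0.38, edgeR adjusted p = 0.773) was -0.055 without shATGL 3.

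*PTGS2*, the inducible cyclooxygenase (ENSG00000073756, chr1:186671791-186680427, minus strand), was low in every library, at 1.46, 1.495 and 1.17 CPM in shNC 1 to 3 and 2.01, 1.40 and 0.899 CPM in shATGL 1 to 3. The shATGL libraries held both the highest and the lowest value. The log2 fold change was 0.065 with a wide 95% interval of -0.65 to 0.78, or 63.6% to 172% of the control level (edgeR adjusted p = 0.948), and it was 0.31 without shATGL 3 and -0.13 after the correction for gene length and GC content. Any difference inside that interval is compatible with these values. *PTGS1* exceeded *PTGS2* per exon length in all 6 libraries, by 17.1 to 22.5 times in shNC and 12.8 to 36.6 times in shATGL (a ratio chosen after the values were seen).

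Of the prostaglandin E synthases, *PTGES2* (ENSG00000148334, chr9:128120693-128128462, minus strand) had 69.0, 70.8 and 76.1 CPM in shNC 1 to 3 and 68.8, 65.6 and 68.5 CPM in shATGL 1 to 3. All shATGL values lay below all control values, with shATGL 1 just under shNC 1. The means were 72.0 ± 3.67 and 67.6 ± 1.77 CPM (SD, n = 3 each), and the log2 fold change was -0.089 (95% interval -0.24 to 0.064, edgeR adjusted p = 0.598, exact permutation p = 0.1), or -0.10 without shATGL 3.

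*PTGES3* (ENSG00000110958, chr12:56663341-56688408, minus strand) had 402, 428 and 433 CPM in shNC 1 to 3 and 405, 406 and 379.6 CPM in shATGL 1 to 3. The groups overlapped through shNC 1, and the log2 fold change was -0.086 (95% interval -0.22 to 0.049, edgeR adjusted p = 0.563), or -0.057 without shATGL 3. Expressed against the control level, the interval ran from 84.5% to 105% for *PTGES2* and from 85.8% to 103% for *PTGES3*.

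**Figure D3:**
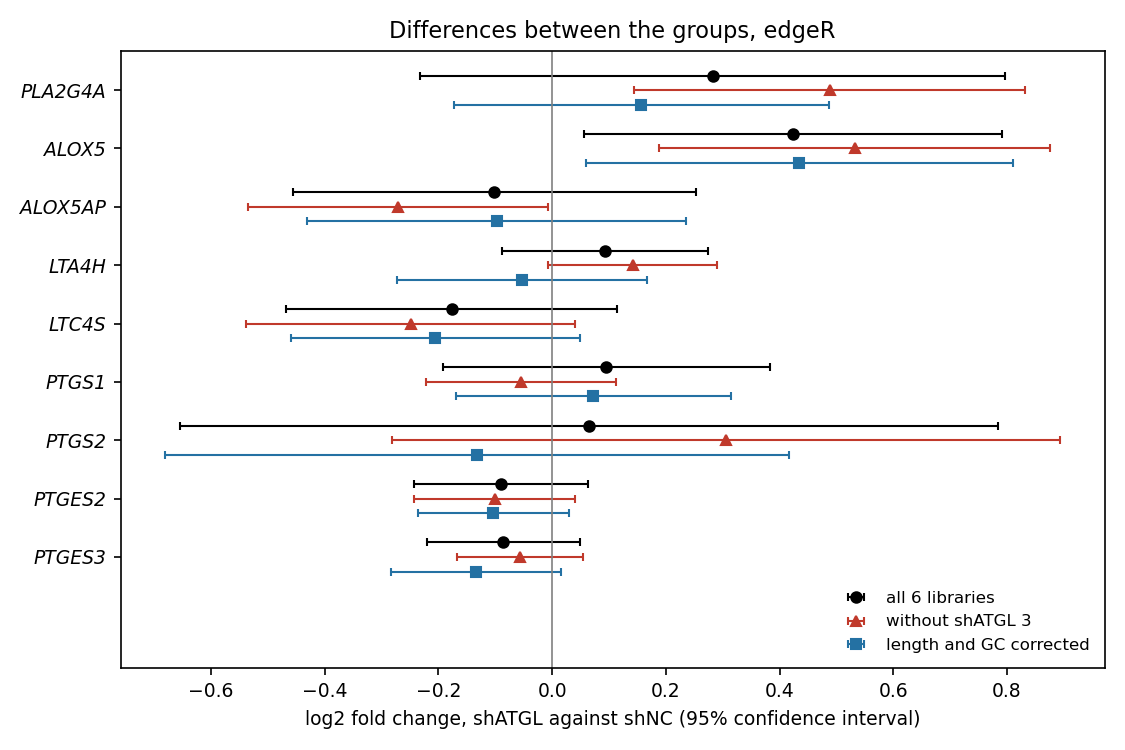
Log2 fold change of each transcript, shATGL against shNC, with the 95% confidence interval from edgeR for all 6 libraries (black circles), without shATGL 3 (red triangles) and after a correction for gene length and GC content (blue squares). The *ALOX5* interval lies above 0 in all 3 fits (0.42, 0.53 and 0.43), *PLA2G4A* goes from 0.28 to 0.49 without shATGL 3, and *PTGS2* has the widest interval, from -0.65 to 0.78.

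Spread over the 6 libraries differed between the transcripts and was larger than counting alone gives. The coefficient of variation was 26.4% for *PTGS2*, 23.4% for *PLA2G4A* and 20.1% for *ALOX5*, beside 10.1%, 3.98% and 4.83% from counting error. It was 13.9% for *ALOX5AP*, 12.1% for *LTC4S* and 11.9% for *PTGS1*. *LTA4H*, *PTGES2* and *PTGES3* varied least, at 6.67%, 5.01% and 4.77%.

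*PTGS2* had the largest SD of log2 CPM, 0.39 over 6 libraries. The genes with the most similar pattern, by the root mean square difference of centred log2 CPM among 13904 genes compared, were *ZNF487* (0.0797), *AC083843.2* (0.0820), *WDR89* (0.0998), *STXBP4* (0.102) and *PCDHB14* (0.105). This likeness is a description of these 6 libraries.

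Other features overlap some of the genes, and the strand setting of the counting is not given in the sources used here. An antisense transcript in *LTA4H* (ENSG00000257878) had 33, 19 and 16 counts in shNC 1 to 3 and 5, 5 and 6 counts in shATGL 1 to 3, with every shATGL library below every control and a log2 fold change of -2.09 (edgeR adjusted p = 0.392). Its counts were few beside those of *LTA4H*, and reads of the pair cannot be told apart without strand. A second one (ENSG00000257715) had 10 counts in shNC 1 alone, and the antisense transcript in *ALOX5* (ENSG00000231964) had 10 to 15 counts per library. ENSG00000269970 within *PTGS1* had at most 12 counts and *RN7SL809P* within *PTGES3* at most 13.

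*PTGES3* also has processed pseudogenes with nearly the same sequence. *PTGES3P1* had 2.56 to 3.58 CPM and *PTGES3P3* 0.229 to 0.605 CPM, *PTGES3P2* and *PTGES3P4* had at most 4 counts in a library, and *PTGES3P5* had none. How reads were divided between these copies and the parent gene is uncertain.

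Around the 10 genes, 74 further genes of arachidonate metabolism were listed. Of these, 15 had no reads in any library and 50 were tested, 26 with a higher and 24 with a lower mean in shATGL and a median log2 fold change of 0.0044. By edgeR's quasi-likelihood test none of the 50 passed an adjusted p of 0.05 (smallest 0.392), and 5 had an unadjusted p under 0.05, beside 11.7% of all genes. The groups did not overlap in 2 of the 50 in the higher direction (7.93% of all genes) and in 3 in the lower (9.38% of all genes). DESeq2 gave 0 of 46 genes an adjusted p under 0.05 and 4 of 59 an unadjusted p under 0.05, while limma voom with quality weights gave 8 of 50 an adjusted p under 0.05, 3 higher and 5 lower, beside 15.7% of all genes.

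The list of leukotriene and related lipid receptors (*LTB4R*, *LTB4R2*, *CYSLTR1*, *CYSLTR2*, *OXER1* and *FPR2*) had a positive log2 fold change in 6 of 6 genes, with a median of 0.30. The last of these bind other ligands, 5-oxo-ETE for *OXER1* and formyl peptides and lipoxin for *FPR2*. Over all genes tested 51.9% had a positive log2 fold change. The SE exceeded the log2 fold change for *CYSLTR2* (0.52, SE 0.83), *OXER1* (0.14, SE 0.17) and *FPR2* (0.042, SE 0.30). *LTB4R*, the high-affinity receptor of leukotriene B4, had 40.7, 40.8 and 39.4 CPM in shNC 1 to 3 and 52.5, 52.6 and 43.3 CPM in shATGL 1 to 3. The shATGL values all lay above the controls, with shATGL 3 the nearest. Its log2 fold change was 0.29 (SE 0.091), with an unadjusted edgeR p of 0.0129 and an adjusted p of 0.392.

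*LTB4R2*, the low-affinity receptor next to it, had 9.50, 10.5 and 10.2 CPM in shNC 1 to 3 and 15.3, 16.2 and 12.1 CPM in shATGL 1 to 3. Here too the groups were separate, and shATGL 3 was again nearest to the controls. The log2 fold change was 0.53 (SE 0.13), with an unadjusted edgeR p of 0.00424 and an adjusted p of 0.392. *LTB4R2* overlaps *LTB4R* and *NOP9* on its own strand and *CIDEB* on the other, so reads may have been shared. The sum of both receptors, formed after their values were seen, was 50.1, 51.3 and 49.6 CPM in shNC 1 to 3 and 67.7, 68.7 and 55.3 CPM in shATGL 1 to 3. *CIDEB* was lower, with 24.4, 24.2 and 22.0 CPM in shNC and 20.5, 16.0 and 19.2 CPM in shATGL (log2 fold change -0.34, edgeR adjusted p = 0.392).

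Among the enzymes downstream of leukotriene A4, *MGST2* and *MGST3* are microsomal glutathione transferases, the first of which can also form leukotriene C4. *MGST2* had 65.9, 63.1 and 72.0 CPM in shNC 1 to 3 and 48.4, 50.6 and 60.4 CPM in shATGL 1 to 3. Every shATGL library was below every control, with a log2 fold change of -0.34 (SE 0.10, edgeR unadjusted p 0.0110 and adjusted p 0.392). *MGST3* had means of 59.3 ± 4.81 and 51.2 ± 4.03 CPM (SD, n = 3 each), its groups overlapped in 1 library, and its log2 fold change was -0.21 (edgeR adjusted p = 0.421).

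*AKR1C3* had 84.4, 85.4 and 94.7 CPM in shNC 1 to 3 and 75.2, 71.8 and 75.1 CPM in shATGL 1 to 3. The groups were separate and the shATGL libraries close together. The log2 fold change was -0.25 (SE 0.069, edgeR unadjusted p 0.00681 and adjusted p 0.392). All 4 tested prostanoid synthases of the list had a lower mean in shATGL (median -0.19), as had all 4 of the epoxygenase branch (median -0.15). All 4 reacylation genes, which return arachidonate to phospholipids, had a higher mean (median 0.076), with overlapping groups in each. Some of these directions rest on values near 0, as for *LPCAT2* (0.0064, SE 0.086) and *EPHX1* of the epoxygenase branch (-0.017, SE 0.089). After the length and GC correction *LPCAT2* was at -0.18 and *ACSL4* at -0.00038. Other lists were mixed, among them release (5 higher, 3 lower) and prostanoid receptors (3 higher, 4 lower). Over all genes tested 51.9% had a positive log2 fold change. The smallest edgeR adjusted p was 0.392 in the synthases, 0.531 in the epoxygenase branch and 0.632 in the reacylation genes. These counts of direction were not tested.

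**Figure D4:**
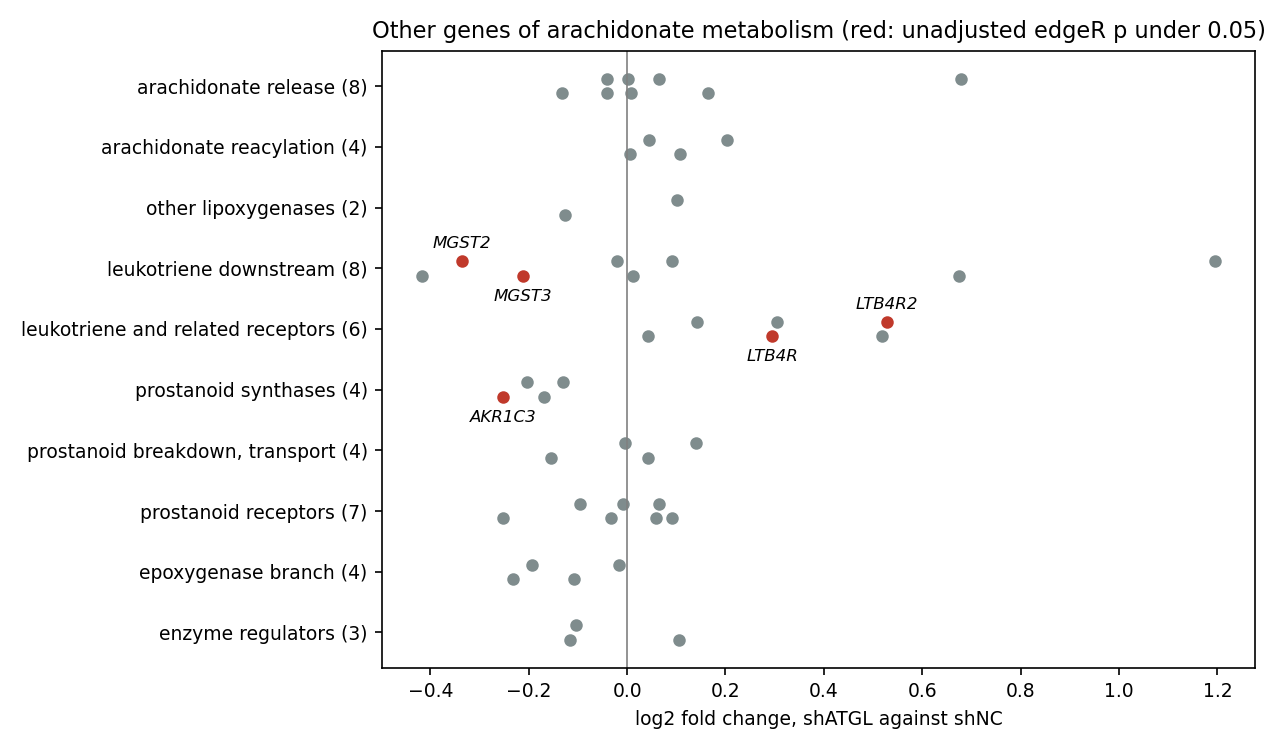
Log2 fold change, shATGL against shNC, of the 50 tested pathway genes, 1 point per gene in rows by list with the number tested in brackets, and the 5 genes with an unadjusted edgeR p under 0.05 in red. *LTB4R* (0.29) and *LTB4R2* (0.53) lie on the right and *MGST2* (-0.34), *MGST3* (-0.21) and *AKR1C3* (-0.25) on the left, while the point farthest right is *CYP4F3* (1.195, SE 0.98), which had at most 0.233 CPM.

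The gene with the highest CPM of each further list differed little. *DAGLB* (release, mean 48.7 CPM), *LPCAT2* (reacylation, 90.8 CPM), *ALOX12* (lipoxygenases, 2.42 CPM), *PTGR3* (breakdown, 38.9 CPM), *EPHX1* (epoxide hydrolase, 37.7 CPM) and *PTGER4* (prostaglandin E2 receptor, 78.8 CPM) had log2 fold changes between -0.033 and 0.10. *COTL1*, a partner protein of 5-lipoxygenase, had means of 437 ± 18.0 and 403 ± 33.9 CPM (SD, n = 3 each) and a log2 fold change of -0.12 (edgeR adjusted p = 0.540).

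Without shATGL 3, 9 of the 50 pathway genes had an edgeR adjusted p under 0.05, 4 higher and 5 lower, and 0 of the 9 tested enzymes had (3 at an unadjusted p under 0.05, beside 28.8% of all genes), beside 14.0% of 19954 genes tested in that fit (7.94% in the higher direction). The difference between the sets was not tested. Because shATGL 3 was singled out by its values, the adjusted p-values of this fit describe these libraries only. In that fit *LTB4R* was higher in shATGL by 0.38 on the log2 scale (edgeR adjusted p = 0.00727) and *LTB4R2* by 0.64 (adjusted p = 0.00936). *CYSLTR1*, a cysteinyl leukotriene receptor, was higher by 0.58 (edgeR adjusted p = 0.0230) and *ACSL4*, which activates arachidonate, by 0.41 (adjusted p = 0.0349). *MGST2* was lower by 0.44 (edgeR adjusted p = 0.00973), *MGST3* by 0.28 (adjusted p = 0.0467) and *AKR1C3* by 0.26 (adjusted p = 0.0354). *COTL1* was lower by 0.19 (edgeR adjusted p = 0.0410) and *MAPKAPK2*, a kinase that acts on 5-lipoxygenase, by 0.20 (adjusted p = 0.0277). *CYSLTR1*, *ACSL4* and *MAPKAPK2* were named after their values were seen. Over all 14 settings the adjusted p of these 9 genes ranged from 0.00727 to 0.999, and *ACSL4* was at -0.00038 after the length and GC correction.

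With all 6 libraries these 3 later genes did not pass in edgeR, while limma voom gave *CYSLTR1* an adjusted p of 0.0489, *MAPKAPK2* 0.0338 and *ACSL4* 0.0859. *CYSLTR1* had 15.2, 18.8 and 14.3 CPM in shNC 1 to 3 and 23.8, 24.3 and 11.5 CPM in shATGL 1 to 3. *ACSL4* had 74.9, 74.2 and 59.3 CPM in shNC 1 to 3 and 96.0, 89.0 and 54.8 CPM in shATGL 1 to 3. In *CYSLTR1* and *ACSL4*, shATGL 1 and 2 were above every control and shATGL 3 below every control.

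Among other cell types, platelet and megakaryocyte sums were separate between the groups, while lymphoid sums and epithelial and fibroblast sums overlapped. No tested marker of the lists below passed an edgeR adjusted p of 0.05. Platelet and megakaryocyte markers summed to 3.06 to 4.19 CPM in shNC and 5.14 to 5.36 CPM in shATGL, with *PF4* and *PPBP* at 0 in a list of 6. Only *GP1BA* of that list had separate groups, with 1.28, 2.67 and 2.45 CPM in shNC 1 to 3 and 2.90, 3.24 and 3.89 CPM in shATGL 1 to 3 (edgeR adjusted p = 0.431). *ITGA2B*, *GP9* and *GP6* overlapped. Lymphoid markers, with *CD3D* and *MS4A1* at 0 in a list of 5, summed to 2.02 to 3.93 and 3.16 to 4.13 CPM. Among erythroid markers, *HBB* was at 0 and *EPOR*, the erythropoietin receptor, had 16.0, 15.3 and 15.3 CPM in shNC 1 to 3 and 11.7, 12.6 and 14.6 CPM in shATGL 1 to 3, with separate groups and a log2 fold change of -0.26 (edgeR unadjusted p 0.0457 and adjusted p 0.418). Epithelial and fibroblast markers, with *EPCAM*, *KRT18* and *COL1A2* at 0 in a list of 5, summed to 0.511 to 0.635 and 0.499 to 0.729 CPM. Their part in the differences above was not tested.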

How the data were processed

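RNA of 6 MV4-11 libraries, 3 shNC and 3 labelled shATGL, was sequenced in paired-end mode on a NovaSeq instrument. Reads were cleaned with FASTP, and the authors deposited raw counts per gene for 61806 Ensembl genes and compared groups with DESeq2. The labels name another RNA kit than the methods and an amplification of the cDNA. The aligner, counting tool and strand setting are not given in the sources used here. The submitters' processing notes name the mouse build mm10, although the gene identifiers are human. Identifiers were matched to names (61757) and GENCODE 29 positions on GRCh38 (58254).

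The edgeR filter for low expression (filterByExpr with a count minimum of 10 and a total minimum of 15) left 19149 genes, which were scaled by TMM in edgeR 4.0.16 (R 4.3.3). Groups came from the labels. The main test was the quasi-likelihood test of edgeR with group as its only term and Benjamini-Hochberg adjustment over all genes tested, and a call needed an adjusted p under 0.05 and a fold of at least 2. Single genes were also compared by exact two-sided permutation over 20 relabellings. Alternatives used DESeq2 1.42.0, limma 3.58.1 (voom with quality weights), other scalings and filters, a block, a spline correction for length and GC content, and each library left out. The scripts were tested on simulated data.

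The 10 genes and all lists were chosen with earlier results of these data known. All 10 were named, *PNPLA2* as the label check, and from the pathway lists the genes with an edgeR p under 0.05, the gene with the highest CPM of each list, overlapping features and pseudogenes with counts, and the 5 genes most like the most variable enzyme. Any other gene in the text is a marker, lacks reads, overlaps a named gene or was picked once its values were known. With total counts of at least 59674064 per library, the floor of 3 counts was at most 0.0504 CPM, which covers counting error only. The summed level of the erythroid list is not reported here.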

Additional observations from a re-analysis of the deposited data

How the results depend on the processing

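No tested enzyme or pathway gene was called at a 2-fold change in any of 14 alternatives. *ALOX5* stayed positive in all 14 and passed an adjusted p of 0.05 with voom alone (0.50 on the log2 scale), where 15.7% of all genes passed. *PLA2G4A* stayed positive (0.13 to 0.49), and *ALOX5AP* (-0.27 to -0.018), *LTC4S* (-0.25 to -0.077), *PTGES2* (-0.12 to -0.048) and *PTGES3* (-0.13 to -0.038) stayed negative, in all 14. *LTA4H* turned to -0.053 and *PTGS2* to -0.13 with the length and GC correction, and *PTGS1* to -0.025 with voom. With single libraries left out, *PTGS1* ranged from -0.055 (without shATGL 3) to 0.19, *PTGS2* from -0.26 (without shATGL 1) to 0.31 and was -0.040 without shNC 3, and *PNPLA2* ranged from -0.024 to 0.033, at 0.018 without shATGL 2 and 0.033 without shNC 3. The median of the tested enzymes moved from 0.065 to -0.098 with the length and GC correction and to -0.025 with voom, and ranged from -0.055 (without shATGL 3) to 0.11 with single libraries left out (-0.018 without shATGL 1, -0.040 without shNC 3). The correction lowered the Spearman correlation of fold change with exon length across 18566 genes from 0.194 to 0.0692. Calls over all genes went from 1 to 24 with DESeq2, 349 with voom and 3 with upper-quartile scaling, and from 0 (without shATGL 1 or shNC 3) to 319 (without shATGL 3) with single libraries left out, with 2 without shNC 1. Causes were not tested. Same-numbered libraries did not deviate together (correlations -0.0323, 0.0257 and 0.0555), so the replicate number was not used as a pairing. With it as a block, 0 genes were called (3317 at an unadjusted p under 0.05), *ALOX5* was at 0.42 (edgeR adjusted p = 0.264), *PTGS2* at 0.00254 and the median at 0.00254. Among the tested enzymes, counting error was largest for *PTGS2*, at 10.1% beside an observed coefficient of variation of 26.4%.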
